A study of Mus musculus with 20 samples.

Results

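The genes described here are 10 activity-regulated effectors measured in mouse striatum: Arc, Homer1, Npas4, Bdnf, Inhba, Nptx1, Nptx2, Vgf, Scg2 and Gpr22. They were picked by symbol from the 26475 loci that carry a gene symbol in the deposited count table, taking the row with the highest mean count where a symbol had several, and all 10 were among the 17206 loci that had enough counts to be tested. The choice was made with earlier results on these animals known, including the fold changes of Arc, Npas4, Bdnf, Nptx1 and Gpr22, so the differences between groups below are descriptions and support nothing by themselves. The animals were male mice about 6 months old, labelled Collaborative Cross, a recombinant population bred from several inbred founder strains. One line had been selected for cage overactivity and the other served as its control. Mice of each line received saline or d-amphetamine at 25 mg/kg and the whole striatum was taken 2 hours later, which gave 4 groups of 5 mice with 1 library each. d-Amphetamine releases dopamine, and the striatum receives dense dopamine input.

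Library totals ranged from 31393788 to 53773028 counts. Levels are CPM (the share of a library's counts that a locus holds, on the usual sequencing scale) scaled between libraries by TMM, and 1 edgeR quasi-likelihood model was fitted to all loci and all 20 libraries. Striatal projection neuron markers were plentiful in every library (14 of 14 measured, summed level 5878 to 9557 CPM). Markers of cortical excitatory neurons were also present in every library, with 15 of 16 measured and none at 0. Their summed level was 720 to 1555 CPM in control line saline, 1202 to 1617 in control line amphetamine, 482 to 833 in overactive line saline and 584 to 1757 in overactive line amphetamine. Markers of thalamus, hypothalamus and septum (12 of 13 measured) summed to 108 to 267 CPM in control line saline, 130 to 176 in control line amphetamine, 161 to 522 in overactive line saline and 138 to 415 in overactive line amphetamine. In whole tissue, fewer cells of a type and less RNA per cell cannot be told apart.

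Neurons turn synaptic activity into new proteins in 2 steps. Calcium entry first activates transcription factors already in the nucleus, such as CREB, and switches on immediate early genes. Some of these encode transcription factors (Fos, Egr1, Npas4), and others encode proteins that act at the synapse themselves. Arc binds the endocytic machinery and removes AMPA receptors from active synapses, and the short form of Homer1 uncouples group I metabotropic glutamate receptors from their scaffold. Secreted products follow. Bdnf encodes a neurotrophin that signals through TrkB, Inhba encodes the activin A subunit, Nptx1 and Nptx2 encode pentraxins that cluster AMPA receptors, and Vgf and Scg2 encode granin-family proteins that are stored in dense-core vesicles and cut into peptides. Gpr22 encodes an orphan G protein-coupled receptor. In the striatum, much of the BDNF protein is carried in by axons of cortical neurons.

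RefSeq promoter windows (250 bases before to 50 after a transcript start, build GRCm38.p6) were at hand for 6 of the 10 genes, in 13 windows, 7 of them for the several starts of Bdnf. Arc, Nptx1, Nptx2 and Vgf had no entry. The motif searched first was the cAMP response element (CRE), the CREB site TGACGTCA, and its half-site, TGACG or CGTCA, on both strands. A full CRE holds both half-sites in overlap. The full CRE was in 1 window, that of Scg2, against 1.79% of all 32851 windows. A half-site was in 4 windows, of Scg2, Homer1, Npas4 and Bdnf, against 20.8% of all windows. The AP-1 motif TGANTCA was in 1 window, of Bdnf (7.81% of all windows), and the serum response element was in 0 (1.63% of all). The 4 stretches with a half-site are shown because CREB is the activator that the early response is best known for. Capitals mark the matches, and each runs 5′ to 3′ on the strand of its gene.
Scg2, minus strand, chr1:79440047-79440146: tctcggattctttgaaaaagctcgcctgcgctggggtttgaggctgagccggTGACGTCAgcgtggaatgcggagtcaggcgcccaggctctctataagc
Homer1, plus strand, chr13:93303657-93303756: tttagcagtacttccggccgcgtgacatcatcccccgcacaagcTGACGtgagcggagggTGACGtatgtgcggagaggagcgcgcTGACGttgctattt
Npas4, minus strand, chr19:4990082-4990181: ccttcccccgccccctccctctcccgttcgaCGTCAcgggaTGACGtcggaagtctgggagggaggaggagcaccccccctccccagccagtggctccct
Bdnf, plus strand, chr2:109692336-109692435: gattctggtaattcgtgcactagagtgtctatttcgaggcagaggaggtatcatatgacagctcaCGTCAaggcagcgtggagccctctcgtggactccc
These are matches of letters only. The counts per locus do not separate the transcripts of Bdnf or the long and short forms of Homer1, so no level can be tied to one window.

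Per kilobase of annotated exon, the granin genes led. The counts are those of the whole row, and the length is that of the gene's own exons. The rows of Inhba, Gpr22, Homer1, Npas4 and Nptx1 reach well beyond the annotated gene, so their values per kilobase are approximate. Scg2 averaged 191 ± 36.8 CPM per kb and Vgf 102 ± 20.3 (SD, n = 20 libraries). Arc (41.4 ± 21.6), Nptx1 (34.5 ± 12.8) and Homer1 (33.8 ± 7.06) came next and lay within each other's spread. Nptx2 followed at 12.1 ± 3.30 CPM per kb. Npas4 (7.69 ± 2.65) and Gpr22 (7.35 ± 1.63) were not apart beyond their spread, and Inhba (3.94 ± 1.21) and Bdnf (1.82 ± 0.90) were lowest. The genes also differed in how widely they varied among mice. Within groups, the SD of Arc was 0.80 on the log2 scale, wider than that of 95.3% of all loci tested, and that of Bdnf was 0.59 (90% of loci). Scg2 (0.24) and Gpr22 (0.20) varied least of the 10, against a median of 0.18 over all loci.

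**Figure D1:**
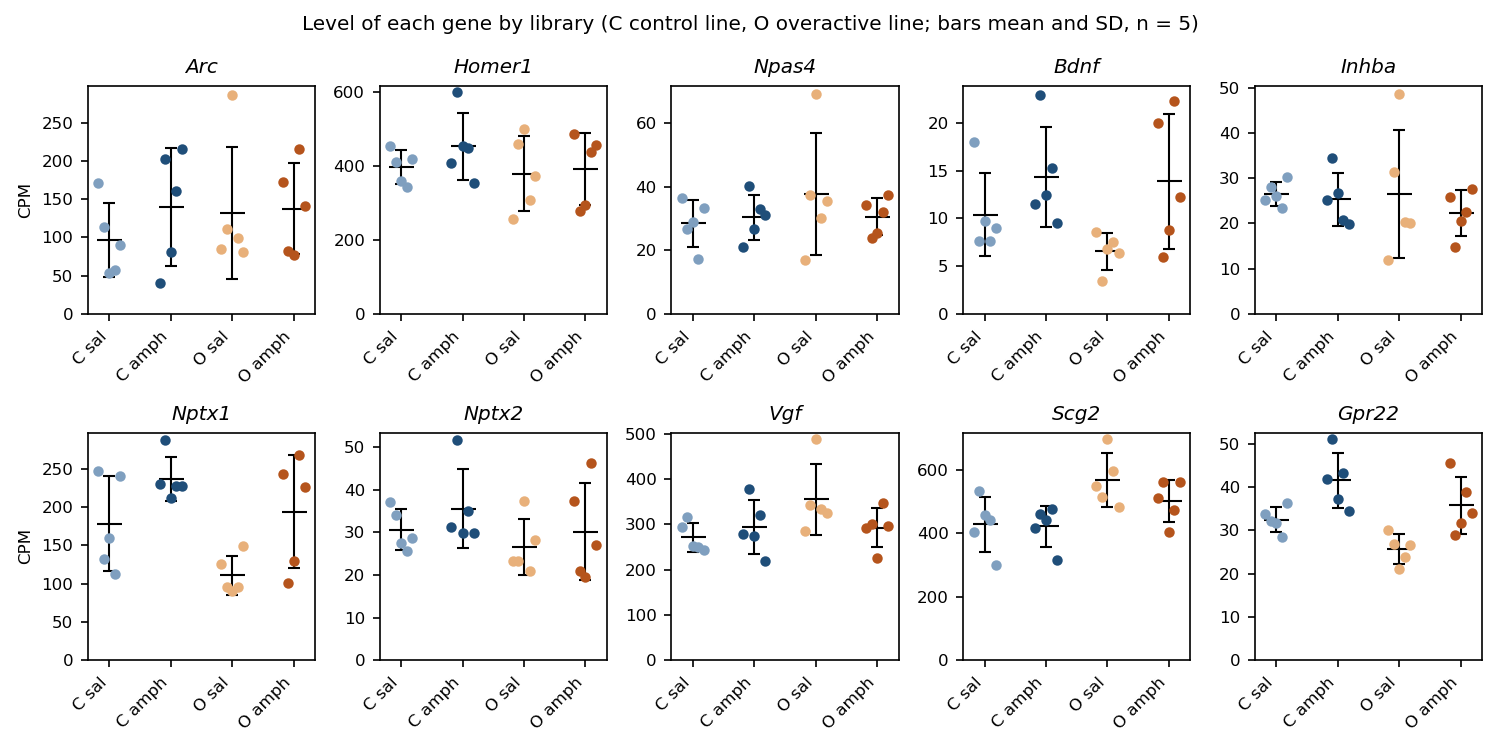
Level of each of the 10 genes in CPM (vertical axis) in every library, by group (horizontal axis, C control line, O overactive line, sal saline, amph amphetamine), with bars for mean and SD, n = 5. Overactive line saline library 3 is the highest point for Arc (286 CPM), Npas4, Inhba, Vgf and Scg2, and control line amphetamine library 2 is the highest for Homer1, Bdnf, Nptx1 (287 CPM), Nptx2 and Gpr22.

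With edgeR, none of the 10 genes had a called change after amphetamine, and with DESeq2 Gpr22 had one over both lines. By edgeR, 0 of 10 had an adjusted p under 0.05 in the control line (0% of all loci called), in the overactive line (0%) or over both lines (0%). The adjusted p of the 10 lay between 0.867 and 0.991 in the control line, 0.357 and 0.992 in the overactive line, and 0.202 and 0.880 over both. At an unadjusted p under 0.05 there was 1 gene in the control line (Gpr22, higher), against 5.56% of all loci and 2.7% that were higher. There were 3 in the overactive line and the same 3 over both lines (Nptx1, Gpr22 and Bdnf, all higher), against 8.03% and 11% of all loci, of which 5.05% and 6.54% were higher. DESeq2 called 0, 0 and 1 of the 10, against 0%, 0.232% and 0.936% of all loci, and its 1 call was Gpr22 over both lines (log2 0.42, SE 0.09, DESeq2 adjusted p = 0.00682). No gene had all amphetamine libraries above or all below the saline libraries in either line, where 0.448% and 0.552% of all loci did in the control line and 0.488% and 0.273% in the overactive line. The median log2 fold change of the 10 was 0.20 in the control line (8 positive), 0.05 in the overactive line (6 positive) and 0.16 over both (6 positive). The median over all loci was -0.00, -0.00 and -0.01 in the same order. Between the lines, the response of 0 of the 10 differed (0% of all loci, edgeR adjusted p = 0.9999 for each), and 0 had an unadjusted p under 0.05 (2.96% of all loci, 1.57% with a higher response). DESeq2 called 0 there too (0%).

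Arc and Homer1 act at the postsynaptic side. Arc (gene on chromosome 15, 74669083 to 74672570, GRCm38) measured 171, 113, 53.0, 56.9 and 89.9 CPM in control line saline and 40.0, 202, 80.3, 161 and 215 CPM in control line amphetamine. In the overactive line it measured 85.0, 111, 286, 99.0 and 80.4 CPM in saline and 173, 82.7, 76.3, 215 and 141 CPM under amphetamine. The groups overlapped widely, since amphetamine groups held some of the lowest and some of the highest libraries and 1 overactive saline library was the highest of all 20. The log2 fold change was 0.53 (SE 0.46) in the control line and 0.06 (SE 0.45) in the overactive line. Without overactive saline library 3 and overactive amphetamine library 2 the latter was 0.69 (SE 0.45). That pair was chosen after seeing the data. For Arc it held the highest saline library and a low amphetamine library of the line, so leaving it out raises the value by construction. Homer1 (chromosome 13, 93299635 to 93405129) was steadier, at 396 ± 45.1 and 452 ± 90.8 CPM in control line saline and amphetamine and 378 ± 101 and 390 ± 96.6 CPM in the overactive line (SD, n = 5). Its log2 fold changes were 0.19 (SE 0.18) and 0.05 (SE 0.18), and the latter was 0.27 (SE 0.18) without the same 2 libraries. For Homer1 these were the highest saline and the lowest amphetamine library of that line, so this rise too is built in. A second row with the symbol Homer1 held 1.38% as many counts and was left aside.

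Npas4 (chromosome 19, 4984355 to 4990316), a transcription factor that drives Bdnf and other genes of inhibitory synapse balance in mouse neurons, measured 36.6, 26.7, 29.0, 17.2 and 33.2 CPM in control line saline. Under amphetamine the control line libraries held 21.0, 40.0, 26.8, 32.9 and 31.1 CPM. Overactive line saline libraries held 16.9, 37.4, 69.0, 30.1 and 35.5 CPM, and amphetamine libraries 34.2, 23.8, 25.3, 32.2 and 37.4 CPM. The saline range enclosed the amphetamine range in the overactive line, and in that group the third library was again the highest of all 20. The log2 fold changes were 0.09 (SE 0.27) and -0.31 (SE 0.27), and the latter was 0.11 (SE 0.25) without overactive saline library 3 and overactive amphetamine library 2. That pair, chosen after seeing the data, held the highest saline and the lowest amphetamine library of the line, so the rise is built in.

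Bdnf and Inhba encode secreted ligands. Bdnf (chromosome 2, 109674700 to 109727007) measured 17.98, 7.63, 9.75, 7.64 and 8.95 CPM in control line saline and 11.5, 22.9, 12.5, 15.3 and 9.48 CPM under amphetamine. In the overactive line it measured 8.60, 3.41, 6.81, 7.54 and 6.42 CPM in saline and 20.02, 6.00, 8.83, 22.4 and 12.2 CPM under amphetamine. In the overactive line 4 of 5 amphetamine libraries lay above every saline library, and the second amphetamine library lay among them. The log2 fold changes were 0.46 (SE 0.34) and 1.09 (SE 0.35). Inhba (chromosome 13, 16011851 to 16031621) measured 26.6 ± 2.67 and 25.4 ± 5.86 CPM in control line saline and amphetamine, and 26.4 ± 14.2 and 22.2 ± 5.04 CPM in the overactive line (SD, n = 5). Its log2 fold changes were -0.07 (SE 0.26) and -0.25 (SE 0.26), and the latter was 0.21 (SE 0.22) without overactive saline library 3 and overactive amphetamine library 2. For Inhba that pair, chosen after seeing the data, held the highest saline and the lowest amphetamine library of the line, so the rise is built in. Both genes share bases with antisense transcripts in the annotation, and the sources used here do not say that counting used the strand. The row counted as Inhba spans 15762744 to 16032118, wider than the gene. It takes in B230303A05Rik, annotated on the opposite strand at 15813548 to 16023423.

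Nptx1 and Nptx2 encode the secreted pentraxins. Nptx1 (chromosome 11, 119538719 to 119547753) measured 247, 132, 160, 113 and 241 CPM in control line saline and 231, 287, 212, 227 and 227 CPM under amphetamine. Overactive line saline libraries held 125, 95.4, 90.9, 95.3 and 150 CPM, and amphetamine libraries 244, 101, 130, 268 and 226 CPM. The overactive saline libraries were low and close together, 3 of 5 amphetamine libraries lay above all of them, and the other two lay within their range. The log2 fold changes were 0.41 (SE 0.25) in the control line and 0.80 (SE 0.25) in the overactive line. Nptx2 (chromosome 5, 144545902 to 144557478), the inducible pentraxin also called Narp, differed by 0.22 (control line, log2, SE 0.22) and 0.18 (overactive line, SE 0.22), from group means of 30.5 ± 4.80 and 35.5 ± 9.30 CPM in the control line and 26.6 ± 6.51 and 30.1 ± 11.4 CPM in the overactive line (SD, n = 5). The overactive line value was 0.44 (SE 0.22) without overactive saline library 3 and overactive amphetamine library 2, and -0.30 (SE 0.25) with a score of cortical markers as a covariate. That pair, chosen after seeing the data, held the highest saline library and a low amphetamine library of the line for Nptx2, so the rise is built in.

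Of the granin genes, Vgf (chromosome 5, 137026392 to 137033351) gave a log2 value for amphetamine against saline of 0.12 (SE 0.15) in the control line and -0.28 (SE 0.15) in the overactive line. Overactive saline library 3 held 489 CPM of it, and the other 19 libraries lay between 220 and 378 CPM. For Scg2 (chromosome 1, 79434669 to 79440120) these values were -0.02 (SE 0.14) and -0.17 (SE 0.14). The receptor gene Gpr22 (chromosome 12, 31706867 to 31713947) measured 33.7, 32.1, 31.7, 28.5 and 36.3 CPM in control line saline and 41.9, 51.1, 37.2, 43.2 and 34.6 CPM under amphetamine. In the overactive line it measured 30.0, 26.8, 21.0, 23.8 and 26.6 CPM in saline and 45.5, 28.9, 31.7, 38.8 and 34.1 CPM under amphetamine. A single amphetamine library in each line lay within the saline range and the other 4 lay above it. The log2 fold changes were 0.36 (SE 0.12) and 0.48 (SE 0.12). Gpr22 lies on the opposite strand inside Cog5, a Golgi tethering gene. Its row in the table spans 31654861 to 31950653, and reads of the pair cannot be told apart if strand was not used. Cog5 measured 26.5 ± 1.86, 30.6 ± 2.57, 27.3 ± 2.18 and 28.3 ± 2.40 CPM (SD, n = 5) in control saline, control amphetamine, overactive saline and overactive amphetamine, with log2 fold changes of 0.20 (SE 0.07) and 0.05 (SE 0.07).

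Cortical markers moved with Nptx1, Bdnf and Gpr22 from group to group. The cortical marker score of a library is the mean deviation of the list's log2 CPM from its mean over all libraries. It averaged 0.12 ± 0.54 in control saline, 0.52 ± 0.20 in control amphetamine, -0.81 ± 0.43 in overactive saline and 0.17 ± 0.72 in overactive amphetamine (SD, n = 5). Slc17a7, the vesicular glutamate transporter of cortical neurons, had a log2 fold change of 1.60 (SE 0.41) in the overactive line and 0.47 (SE 0.40) in the control line. Of the 15 markers measured, 15 had a positive log2 fold change in the overactive line (median 1.30) and 14 in the control line (median 0.40), with 0 past the test in either (edgeR, 11 and 0 at an unadjusted p under 0.05). Of all loci, 8.03% and 5.56% had an unadjusted p under 0.05 in the overactive and the control line (edgeR). With the score as a covariate in the model, the log2 fold change of Nptx1 in the overactive line was -0.08 (SE 0.09) and that of Bdnf was 0.01 (SE 0.27). That of Gpr22 was 0.16 (SE 0.10) in the overactive line and 0.23 (SE 0.09) in the control line. The score and the treatment overlap in the overactive line, where the saline libraries were all below 0, so they cannot be fully told apart there.

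**Figure D2:**
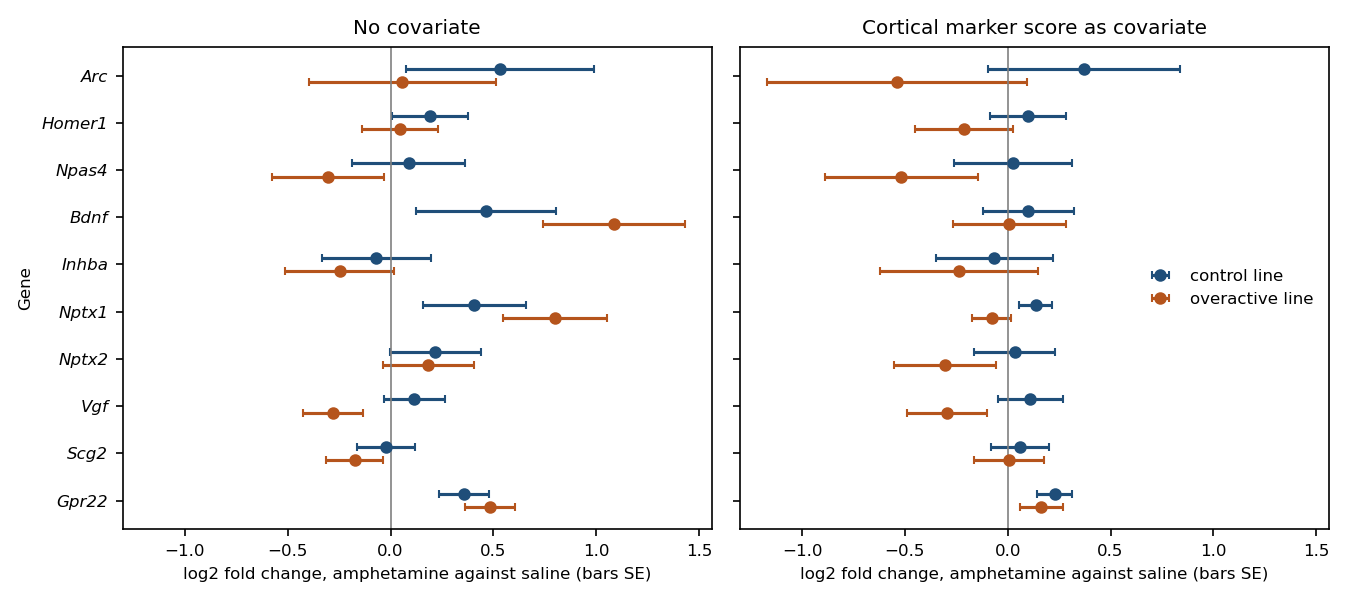
Log2 fold change after amphetamine against saline (horizontal axis, bars SE) for the 10 genes (vertical axis) in the control line (blue) and the overactive line (orange), from the model without a covariate (left) and with the cortical marker score as a covariate (right). In the overactive line Nptx1 goes from 0.80 on the left to -0.08 on the right, and Bdnf from 1.09 to 0.01.

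The lines were compared within each treatment. In saline, 0 of 10 genes passed with edgeR (1.11% of all loci, adjusted p of the 10 between 0.148 and 0.993), and 4 had an unadjusted p under 0.05 (17.3% of all loci). Of these, Scg2 and Vgf were on the higher side (8.74% of all loci) and Nptx1 and Gpr22 on the lower. DESeq2 called 0 (4.44% of all loci). Scg2 measured 406, 535, 459, 443 and 300 CPM in control line saline and 548, 515, 698, 596 and 483 CPM in overactive line saline. The groups overlapped, since 1 control library exceeded 2 overactive ones, and the log2 difference of the overactive from the control line was 0.41 (SE 0.14). Vgf had a difference of 0.39 (SE 0.15), from 271 ± 32.5 to 355 ± 77.9 CPM (SD, n = 5), and it was 0.25 (SE 0.14) without overactive saline library 3 and overactive amphetamine library 2. That pair was chosen after seeing the data, and overactive saline library 3 was the highest library for Vgf, so the fall is built in. Nptx1 (-0.68, SE 0.25), Bdnf (-0.66, SE 0.34) and Gpr22 (-0.34, SE 0.12) were on the other side. In saline the cortical marker score averaged 0.12 ± 0.54 in the control line and -0.81 ± 0.43 in the overactive line (SD, n = 5). Slc30a3 of that list passed, with the overactive line lower (log2 -1.71, SE 0.41, edgeR adjusted p = 0.0486). Score and line therefore cannot be fully told apart in saline. With the score as a covariate, Nptx1, Bdnf and Gpr22 had differences of 0.13 (SE 0.09), 0.25 (SE 0.26) and -0.05 (SE 0.10). Scg2 and Vgf had differences of 0.25 (SE 0.16) and 0.40 (SE 0.19). Thalamic, hypothalamic and septal markers were mostly on the same side in saline (11 of 12 measured had a positive difference, median log2 0.76, 0 past the test, 2 at an unadjusted p under 0.05, edgeR), and their part in the values of Scg2, Vgf and the partner gene Scg5 was not tested.

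After amphetamine, 0 of 10 genes passed with edgeR (0.453% of all loci) and 0 had an unadjusted p under 0.05 (12.9% of all loci, 6.79% on the higher side), and DESeq2 called 0 (1.87%). Their log2 differences of the overactive from the control line lay between -0.29 (Nptx1, SE 0.25) and 0.25 (Scg2, SE 0.14), with a median of -0.11 against 0.00 over all loci. In neither treatment did any of the 10 have all libraries of one line above those of the other. In saline 2.36% of all loci lay wholly higher in the overactive line and 1.9% wholly lower, and after amphetamine 1.57% and 1.36% did. The amphetamine and line comparisons share groups and are not independent of each other.

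What the 10 genes varied with from mouse to mouse was examined with the group means removed, so that mean differences between treatments or lines do not enter. Differences among the mice of a group, including any in their response to amphetamine, stay in the deviations. Each library was taken as its deviation from the mean of its group, and deviations were compared over 20 libraries by permuting libraries within groups (100000 permutations, smallest p 1e-05). They were set against the cortical marker score and against a score of 22 activity-regulated transcription factor genes, among them Fos, Egr1 and Nr4a1, with p-values adjusted over the 20 relations. The genes compared share each library's dissection and RNA, and both scores were made from the same libraries. At an unadjusted p under 0.05, 7 of the 10 genes were related to the activity score, all with a positive r, against 12.8% of all loci (6.22% with a positive r, 10000 permutations, genes of the score left out). For the cortical marker score there were 4 of 10, all with a positive r, against 14.7% of all loci (8.2% with a positive r). The scores themselves had a Pearson r of 0.35 (permutation p = 0.161).

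Arc followed the activity score closely, with a Pearson r of 0.95 (permutation p = 1e-05, adjusted p = 0.0001) and a Spearman rho of 0.93 (p = 2e-05, adjusted p = 0.0002). Without the 2 libraries farthest from the median of that score, overactive saline 3 and control saline 1, its r was 0.94. Nptx2 (r = 0.81, permutation p = 0.00015, adjusted p = 0.000533) and Npas4 (r = 0.78, permutation p = 0.00016, adjusted p = 0.000533) also passed, with rho of 0.79 (p = 0.0006) and 0.83 (p = 0.00016) and r of 0.77 and 0.65 without those libraries. Homer1 passed at r = 0.69 (permutation p = 0.00409, adjusted p = 0.0117, rho 0.71, p = 0.00221), with 0.62 without them. Libraries high in these transcription factor genes for their group thus tended to be high in Arc, Nptx2, Npas4 and Homer1. There were exceptions, such as control amphetamine 5, which deviated by 0.31 in the score but by -0.33 in Homer1 and -0.22 in Nptx2. Vgf passed narrowly (r = 0.62, permutation p = 0.0168, adjusted p = 0.0421, rho 0.55, p = 0.0219). Its r was 0.45 without the same 2 libraries, and lay between 0.44 and 0.84 when single libraries were left out. Its call was lost in 13 of these 20 fits. In many of them r hardly moved and the adjusted p rose just past the threshold, as without control saline 1 (r = 0.61, permutation adjusted p = 0.0589). The r fell most without overactive saline 3 (r = 0.44, permutation adjusted p = 0.198).

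Nptx1 followed the cortical marker score instead, with a Pearson r of 0.96 (permutation p = 1e-05, adjusted p = 0.0001) and a rho of 0.96 (p = 1e-05). Its r was 0.95 without the 2 libraries farthest from the median of that score, overactive amphetamine 2 and 4. Bdnf (r = 0.80, permutation p = 0.00014, adjusted p = 0.000533, rho 0.75, p = 0.00043) and Gpr22 (r = 0.78, permutation p = 0.0001, adjusted p = 0.000533, rho 0.74, p = 0.00065) passed as well, with r of 0.69 and 0.75 without those libraries. With group means removed, libraries rich in cortical markers tended to be rich in Nptx1, Bdnf and Gpr22. Nptx2 missed the threshold with this score (r = 0.58, permutation p = 0.0269, adjusted p = 0.0598, rho 0.61, p = 0.0140), though its Spearman adjusted p was 0.0350. With the activity score, Bdnf had an r of 0.51 (permutation p = 0.0401, adjusted p = 0.0729, rho 0.49, p = 0.0487) and Nptx1 an r of 0.42 (permutation p = 0.0750, adjusted p = 0.125, rho 0.47, p = 0.0457). Whether a gene's r with one score differed from that with the other was not tested.

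**Figure D3:**
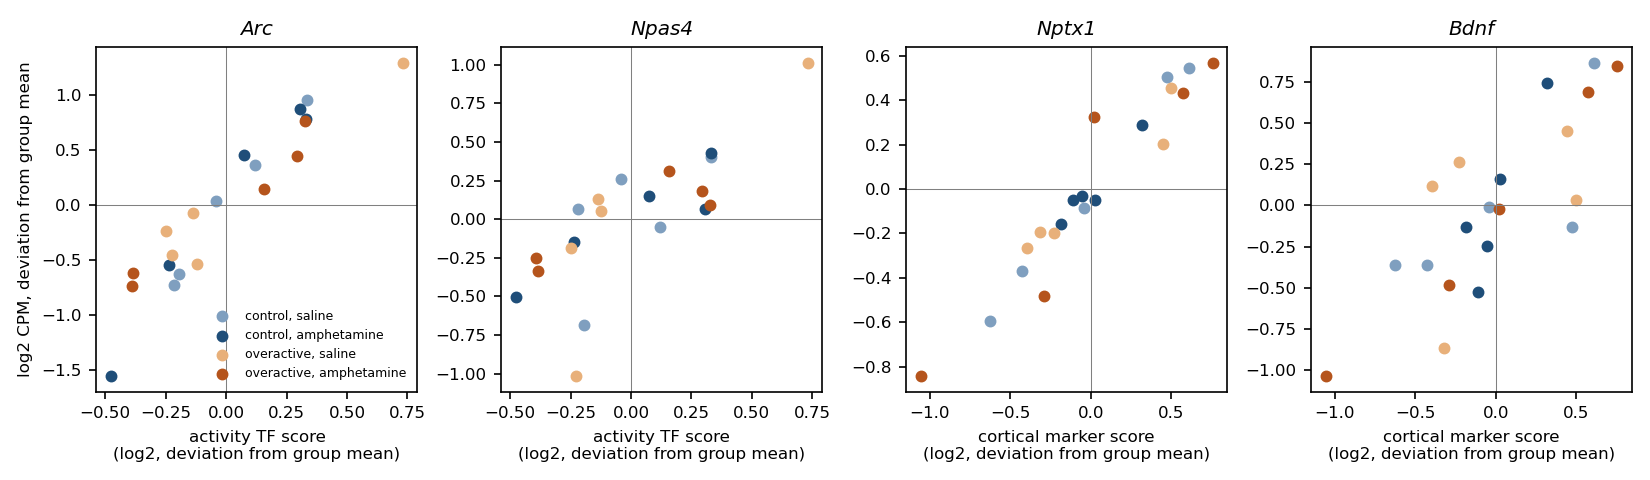
Each point is 1 of 20 libraries, as log2 deviation from its group mean, with the gene's log2 CPM on the vertical axis and a marker score on the horizontal axis, coloured by group. Arc and Npas4 are set against the activity transcription factor (TF) score (r = 0.95 and 0.78), and Nptx1 and Bdnf against the cortical marker score (r = 0.96 and 0.80).

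Inhba and Scg2 passed with neither score. Inhba had an r of 0.56 with the activity score (permutation p = 0.0351, adjusted p = 0.0703, rho 0.44, p = 0.0876) and 0.39 without the 2 farthest libraries. Scg2 had an r of 0.18 with the activity score (permutation p = 0.448, adjusted p = 0.527, rho 0.12, p = 0.627) and -0.37 with the cortical marker score (permutation p = 0.137, adjusted p = 0.211, rho -0.38, p = 0.135). Among themselves, 17 of the 45 pairs of the 10 genes passed, all with a positive r. The lowest r that passed was 0.59, which 18 of the 45 pairs (40%) and 1.97% of all pairs of tested loci reached. The closest pair was Homer1 and Inhba (r = 0.85, permutation p = 4e-05, adjusted p = 0.00112 over 45 pairs, rho 0.89, Spearman adjusted p = 0.00135, r = 0.78 without the 2 libraries farthest in Homer1). Npas4 passed with Homer1 (r = 0.80, adjusted p = 0.00112), Inhba (r = 0.80, adjusted p = 0.0061) and Arc (r = 0.73, adjusted p = 0.00304) by permutation. Its r with Inhba was 0.50 without the 2 libraries farthest in Npas4. The granin genes Vgf and Scg2 passed with each other (r = 0.67, permutation adjusted p = 0.0061, rho 0.64, r = 0.63 without 2 libraries). Nptx1 passed with Bdnf (r = 0.75, permutation adjusted p = 0.00605, rho 0.66) and Gpr22 (r = 0.73, permutation adjusted p = 0.00306, rho 0.72), and Nptx2 passed with Bdnf (r = 0.73, permutation adjusted p = 0.0114, rho 0.68).

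**Figure D4:**
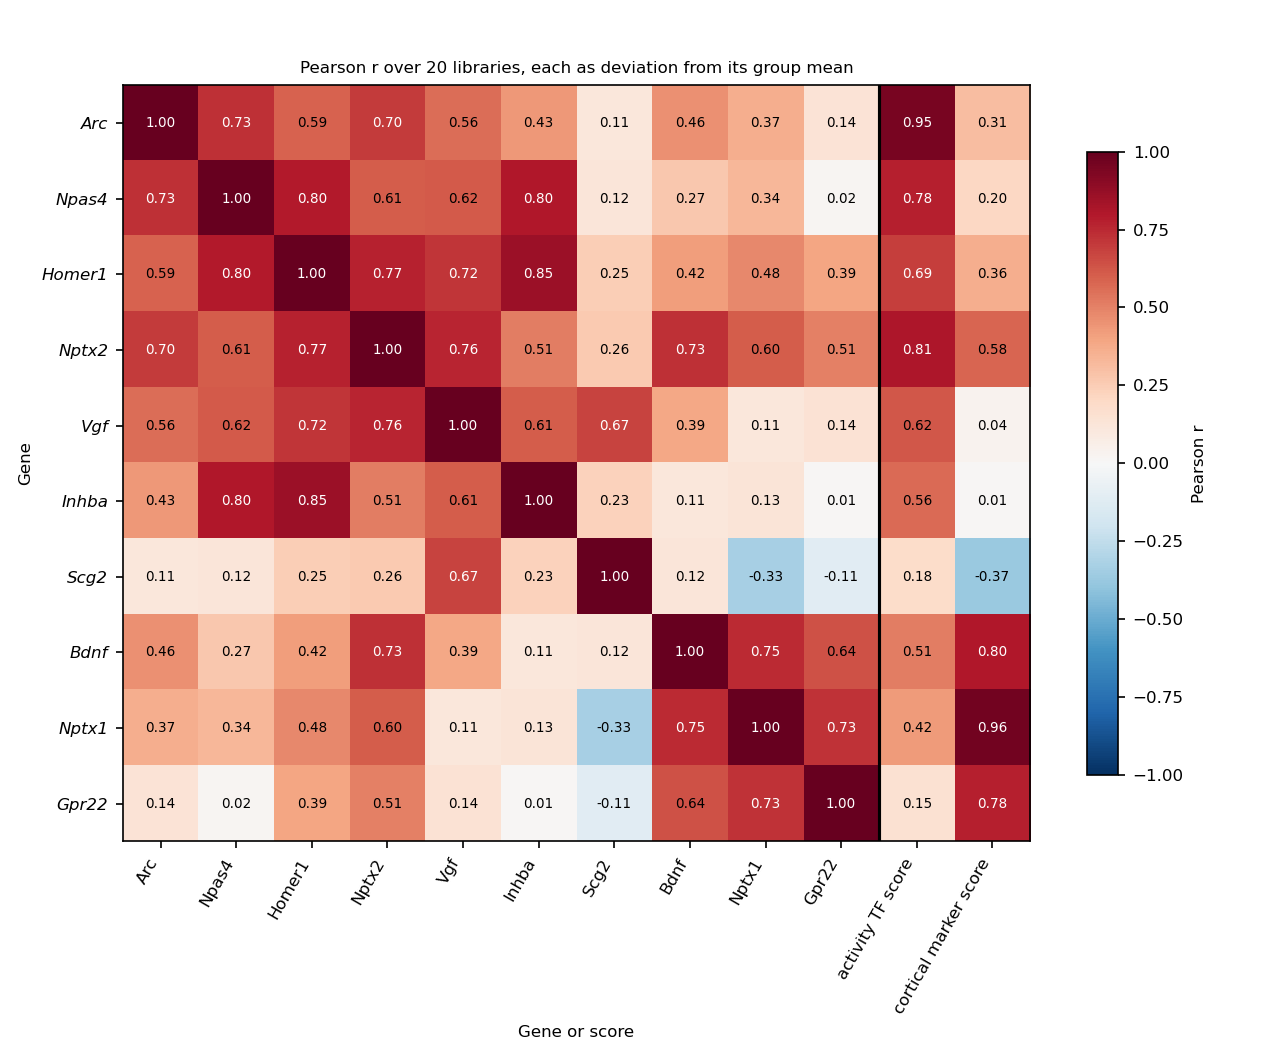
Pearson r over 20 libraries, each as deviation from its group mean, between the 10 genes (vertical axis) and the same genes and the activity transcription factor (TF) and cortical marker scores (horizontal axis, scores right of the line). Arc, Npas4, Homer1 and Nptx2 have r of 0.69 to 0.95 with the activity score, and Bdnf, Nptx1 and Gpr22 have r of 0.78 to 0.96 with the cortical marker score.

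The genes of most similar profile were sought among the loci with 1 symbol and a mean of at least 1 CPM, again over deviations of 20 libraries. For Arc they were Nr4a1 (r = 0.96) and Egr1 (r = 0.95), both immediate early transcription factor genes in the activity score. For Nptx1 they were Tbr1 (r = 0.97), a transcription factor of deep cortical neurons in the cortical list, and 3110035E14Rik (r = 0.97). Homer1 was nearest to Grasp (r = 0.96), which encodes the glutamate receptor scaffold tamalin, and to Hivep2 (r = 0.95), and Nptx2 to the ERK phosphatase gene Dusp6 (r = 0.91) and the potassium channel gene Kcnf1 (r = 0.91). Vgf was nearest to Dusp4 (r = 0.88), another MAP kinase phosphatase, and Ciapin1 (r = 0.84). Bdnf was nearest to the somatostatin receptor gene Sstr3 (r = 0.94) and Rap2a (r = 0.93), Npas4 to Trak1 and BC017647 (both r = 0.87), and Inhba to the kinase genes Mark3 (r = 0.91) and Sik2 (r = 0.90). Scg2 was nearest to the chaperonin subunit genes Cct2 (r = 0.86) and Cct3 (r = 0.85), and Gpr22 to BC024659 (r = 0.90) and the cadherin gene Cdh12 (r = 0.89). Each is the best of many loci, so a high r is what such a search returns.

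Other genes of the same programme were counted from fixed lists. Of 22 activity transcription factor genes, 22 had a positive log2 fold change after amphetamine in the control line (median 0.19) and 7 in the overactive line (median -0.10), and 0 passed the edgeR test in either (0 and 3 at an unadjusted p under 0.05). Of 24 other activity-regulated effector genes, 23 were positive in the control line (median 0.16) and 11 in the overactive line (median -0.02), again with 0 past the test (1 and 4 at an unadjusted p under 0.05). Over all loci, 48.8% and 48.3% were positive in the control and the overactive line, and 5.56% and 8.03% had an unadjusted p under 0.05 (edgeR). Genes of a list share the same libraries, so their signs are not independent of each other. The activity score of overactive saline library 3 was 0.70, and the other saline libraries of that line lay between -0.28 and -0.15. Under amphetamine the score of that line averaged -0.04 ± 0.36 (SD, n = 5). The part of that single library in the counts of the overactive line was not tested. Fos measured 10.4 ± 3.26 and 16.4 ± 8.94 CPM in the control line and 15.1 ± 9.99 and 13.9 ± 5.51 CPM in the overactive line (SD, n = 5). Cdkn1a, which encodes the cell cycle inhibitor p21, was the 1 gene of these lists to pass in any comparison. It was higher in overactive than in control line saline (log2 1.13, SE 0.24, edgeR adjusted p = 0.0282), where 1.11% of all loci were called. Overactive line saline libraries held 15.3, 12.6, 27.1, 13.3 and 20.8 CPM of it, again highest in library 3. Control line saline libraries held 10.1, 8.64, 8.73, 5.78 and 7.56 CPM.

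Receptors, processing enzymes and inhibitors that work with the 10 gene products gave 27 of 28 genes measured. The missing one, Nptxr, the membrane-bound pentraxin, lies in a locus shared with other symbols. None of the 27 passed after amphetamine in either line (edgeR, 3 and 5 at an unadjusted p under 0.05), and medians were 0.06 and 0.02. Of all loci, 0% passed in either line, and 5.56% and 8.03% had an unadjusted p under 0.05 (edgeR). The TrkB gene Ntrk2 had log2 fold changes of 0.08 (SE 0.05) in the control and -0.02 (SE 0.05) in the overactive line. The metabotropic glutamate receptor gene Grm5, whose product binds Homer1, had 0.13 (SE 0.10) and -0.03 (SE 0.10). The activin receptor gene Acvr2a had 0.05 (SE 0.09) and 0.02 (SE 0.09), and the activin antagonist gene Fst had -0.04 (SE 0.16) and 0.11 (SE 0.16). The peptide-processing genes Pcsk2 and Cpe had 0.24 (SE 0.09) and 0.08 (SE 0.06) in the control line and 0.15 (SE 0.09) and -0.04 (SE 0.06) in the overactive line.

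In saline, 2 of these 27 genes differed between the lines, where 1.11% of all loci were called, and 8 of the 27 had an unadjusted p under 0.05, where 17.3% of all loci did. Scg5, whose product 7B2 is the chaperone of the peptide convertase encoded by Pcsk2, had a log2 difference of 0.84 (SE 0.20, edgeR adjusted p = 0.0496), with the overactive line above. It measured 168, 328, 181, 193 and 342 CPM in control line saline and 484, 433, 408, 423 and 422 CPM in overactive line saline, and the groups did not overlap, as for the 2.36% of all loci that lay wholly higher in that line. Acvr1b, which encodes the type I activin receptor ALK4, was lower (log2 -0.17, SE 0.04, edgeR adjusted p = 0.0471), at 138 ± 6.15 CPM in the control and 123 ± 5.99 CPM in the overactive line (SD, n = 5). After amphetamine neither passed (edgeR adjusted p = 0.12 and 0.16), with log2 differences of 0.74 (SE 0.20) and -0.14 (SE 0.04).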

How the data were processed

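RNA from the whole striatum of 20 mice was sequenced with paired ends, per the series design. The authors deposited 1 table of expected counts per locus, not scaled between samples, in which 93.9% of values were whole within 0.01. The builds mm10 and GRCm38 are named in the submitters' processing notes. The aligner, the counting tool and the use of strand are not given in the sources used here. Of 37051 loci, 10576 without a symbol (0.65% of counts) were left out, and expected counts were rounded to whole numbers. Gene spans (counted from 1) and exon lengths are from GENCODE M21 on GRCm38.

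Libraries were grouped by the code in their titles. The 17206 loci kept by filterByExpr were scaled by TMM and fitted in edgeR 4.0.16 (R 4.3.3) with 1 mean per group, and p-values were adjusted by Benjamini-Hochberg over all of them (threshold 0.05). Log2 CPM used a prior count of 2. The 5 mice of a group are separate animals. Total counts per library were 31393788 to 53773028. Each SE states the precision of its log2 value, which depends on the spread among mice as well as on depth. The members, lists and tests were chosen with earlier results of these data known. The text names the 10 genes, for each the 2 of most similar profile, a few reference and partner genes set in the plan, and every listed activity or partner gene that passed. Slc30a3, a cortical marker that passed, and genes that overlap a member are named too. Alternatives were RLE scaling, no filter, DESeq2 1.42.0, only the groups compared, a replicate block, the cortical score as covariate, a prior count of 0.5, Spearman's rho, and leaving out each library. The fit without overactive saline library 3 and overactive amphetamine library 2 was chosen after seeing the data. It leaves out the library with the highest level of Arc, Npas4, Inhba, Vgf and Scg2, so it moves their values in a direction set beforehand. The scripts were tested on simulated data.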

Additional observations from a re-analysis of the deposited data

Results flagged for a closer look

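In 48 sets of 5 libraries (the 10 genes and both scores in each group), 6 had 1 library far from the other 4 by Dixon's criterion, which chance alone meets in about 1 of 20 sets. Overactive saline library 3 stood high in Arc (286 CPM), in Vgf (489 CPM) and in the activity transcription factor score (0.70). Control amphetamine library 2 stood high in Nptx1 (287 CPM) and Nptx2 (51.7 CPM), and control saline library 1 in Bdnf (17.98 CPM).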

How the results depend on the processing

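No alternative changed the count of 0 called genes with edgeR in any of the 6 comparisons, and with DESeq2 it became 1 for amphetamine over both lines (Gpr22). The median log2 fold change of the 10 genes in the overactive line after amphetamine, 0.05, was 0.35 without overactive saline library 3 and overactive amphetamine library 2, and lay between -0.09 and 0.25 when single libraries were left out. The counts of genes that passed with the activity score (5) and the cortical marker score (3) lay between 4 and 7 and between 3 and 4 when single libraries were left out. The lowest r that passed was 0.62 with the activity score and 0.78 with the cortical marker score. Of all loci, genes of the score left out, 2.09% and 1.36% reached these values. Without that pair of libraries Homer1 (r = 0.55, permutation adjusted p = 0.0587) and Vgf (r = 0.51, adjusted p = 0.174) lost their call with the activity score, Nptx1 gained one there (r = 0.58) and Nptx2 with the cortical marker score (r = 0.70), and the r of Inhba with the cortical marker score was -0.0956. Of 60 log2 fold changes of the 10 genes over the 6 comparisons, 20 changed sign when single libraries were left out, 12 without that pair of libraries, 19 with the cortical score as covariate, 1 with the replicate block and 0 with DESeq2. In the overactive line after amphetamine, single libraries moved Arc between -0.16 and 0.55 and Inhba between -0.44 and 0.09. Correlations that changed sign when single libraries were left out were the r of Inhba (-0.25 to 0.20) and Vgf (-0.10 to 0.19) with the cortical marker score and that of Scg2 (-0.038 to 0.352) with the activity score. The cause was not tested. Replicate numbers were not taken as a pairing in the main model. A correlation of deviations over 0.1 was found in 10 of 30 same-numbered and 19 of 120 different-numbered pairs of libraries from different groups. The medians were 0.035 and -0.0085, and 6 of 20 libraries correlated best with their own number. Whether same-numbered libraries share a source of variation was not tested. With the replicate block the count stayed 0 in the 6 comparisons, and the median log2 over both lines was 0.15.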

Other observations

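Scg5 fell into separate levels within the control line in both treatments. In saline, libraries 1, 3 and 4 held 168, 181 and 193 CPM and libraries 2 and 5 held 328 and 342 CPM. Under amphetamine, libraries 3 and 5 held 167 and 193 CPM and libraries 1, 2 and 4 held 314, 329 and 334 CPM. The 10 overactive line libraries lay between 408 and 484 CPM.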
